A study of Mus musculus with 76 samples.

Results

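The genes described here are 39 targets and partners of the transcription factor ATF4, among them amino acid enzymes, amino acid transporters and tRNA ligases. They were chosen by name, and all 39 were matched in a count table of 38924 mouse genes. The table holds 70 polyA RNA libraries from 76 sequenced samples, 6 of the libraries having been sequenced in 2 runs that were summed. Mouse embryonic stem cells of a common laboratory strain, C57BL/6J (called B6), and of a strain derived from wild mice, WSB/EiJ (called WSB), were differentiated into neural cells and sampled in 16 groups. At the neural progenitor (NPC) stage, control cultures and cultures given ID-8, a small molecule that blocks the DYRK1A kinase, had 6 libraries per strain and treatment. At the maturation stage the same 4 groups had 4 libraries each. At the axonal regrowth (axon) stage, control and ID-8 cultures were either left uncut or had their axons cut, with 4 libraries in each of the 8 groups except B6 ID-8 cut and WSB ID-8 uncut, which had 3. The labels give no dose, day or genetic change for any group. They name no separate mice, lines or differentiations, so p-values measure the spread between these libraries, which may be technical.

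In the integrated stress response, kinases that sense amino acid shortage, unfolded protein, heme shortage or viral RNA phosphorylate the translation factor eIF2. General protein synthesis then slows while the Atf4 message is translated more. ATF4 protein pairs with C/EBP family members on composite DNA elements and raises genes that make amino acids, import them and load them on tRNA, together with genes that feed back on the response or promote cell death. Neural cells use the same genes to supply serine, glycine and glutathione.

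Levels are given as CPM, counts scaled to the same total in each library, and differences as fitted log2 differences ± SE. A gene was called higher or lower at an edgeR adjusted p under 0.05, with p-values adjusted over all genes tested in that comparison. In bulk RNA, fewer cells of a type and less RNA per cell cannot be told apart. Library totals, in megacounts (M), were 22.88 to 131.49 M at the NPC stage, 25.12 to 41.74 M at maturation and 20.37 to 99.19 M at the axon stage. Summed neural progenitor markers ranged from 379.9 to 1447 CPM in NPC libraries, and summed pluripotency markers (Pou5f1, Nanog and others, 8 in all) from 454.6 to 2650 CPM in B6 and from 40.71 to 466.4 CPM in WSB NPC libraries. Summed neuronal markers were 1479 to 3320 CPM at maturation and 2386 to 7450 CPM at the axon stage, with astrocyte markers at 455.5 CPM or more in every library of both stages. Culture sets were read from the runs of sample names, and the labels do not state them. A pair of WSB uncut axon libraries from one such set stood above the other 13 WSB axon libraries in 17 of the 39 members. The maturation libraries were placed in 2 culture sets, with different control levels of the members. Neither pattern was counted over all genes. Results that rest on these libraries are given by set. Libraries also fall into 3 numbered blocks by the library numbers in their names, blocks 1 and 2 at the NPC stage, blocks 2 and 3 at the axon stage and block 3 at maturation.

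ATF4 and C/EBP proteins are known to bind composite elements with the core TGATGNAA, so the promoter windows of the members were searched for these 8 letters on both strands. The windows run from 250 bases before to 50 bases after each RefSeq transcript start (GRCm38.p6). Windows were found for 31 members, and Aldh1l2, Cth, Slc7a3, Slc7a5, Slc1a5, Cars, Nars and Wars had none. The letters occurred in 11 of the 31 members (35.5%), against 1219 of 27025 genes (4.51%) with a window. They occurred in 3 of 4 tRNA ligases, 2 of 4 transporters, 3 of 7 stress effectors, 2 of 5 amino acid enzymes outside the serine group, 1 of 6 transcription factors and 0 of 5 serine and one-carbon enzymes, and a match describes letters, not a bound site. The following stretches are examples from members that hold the motif (capitals) before the transcript start, written 5′ to 3′ on the gene's strand.
Nupr1 (chr7:126625563-126625590, minus strand): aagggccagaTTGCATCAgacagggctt
Chac1 (chr2:119351023-119351082, plus strand): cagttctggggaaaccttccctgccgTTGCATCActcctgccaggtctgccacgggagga
Asns (chr6:7693215-7693242, minus strand): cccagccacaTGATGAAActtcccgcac
Pck2 (chr14:55540137-55540196, plus strand): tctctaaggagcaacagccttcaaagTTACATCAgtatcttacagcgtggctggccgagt
Slc7a11 (chr3:50443627-50443686, minus strand): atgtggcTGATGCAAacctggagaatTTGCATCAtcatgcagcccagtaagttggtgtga
Gars (chr6:55037945-55038000, plus strand): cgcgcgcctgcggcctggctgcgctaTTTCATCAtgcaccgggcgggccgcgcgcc
Slc7a11, which encodes the cystine importer, held the letters in both orientations within this stretch, starting 66 and 47 bases before the transcript start. In Chac1 the match started 193 bases before the start, in Nupr1 110, in Pck2 103, in Gars 30 and in Asns 23. The other members with a match held it at other positions. The RefSeq windows of the 20 members without a match, Atf4 and Phgdh among them, did not hold these letters.

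Across the 16 groups the members were measured at very different levels. Per kilobase of transcript, averaged over group means, Atf4 was the most abundant member at 127.03 CPM per kb, followed by the glycyl-tRNA ligase Gars at 101.71 and the asparaginyl-tRNA ligase Nars at 89.668. The lowest was Cbs, an enzyme of the transsulfuration path, at 2.1858 CPM per kb. In 25 of the 39 members the highest group mean was that of maturation B6 ID-8, in 7 that of NPC B6 ID-8 and in 4 that of maturation B6 control. The lowest mean fell in axon WSB control cut for 13 members and in axon B6 control uncut for 7. These counts were not made over all genes, so a shift of the members cannot be told from a general one. NPC and maturation libraries share no library block, so stage and block cannot be told apart between them. Slc7a11 had the widest range of group means, from 1.1672 CPM in NPC B6 control to 252.58 CPM in maturation B6 ID-8, a ratio of 216.4. Cth, which cleaves cystathionine to cysteine, had a ratio of 66.2 and the stress chromatin protein Nupr1 one of 53.4. The tRNA ligase Aars had the narrowest range, with a ratio of 2.1536.

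**Figure D1:**
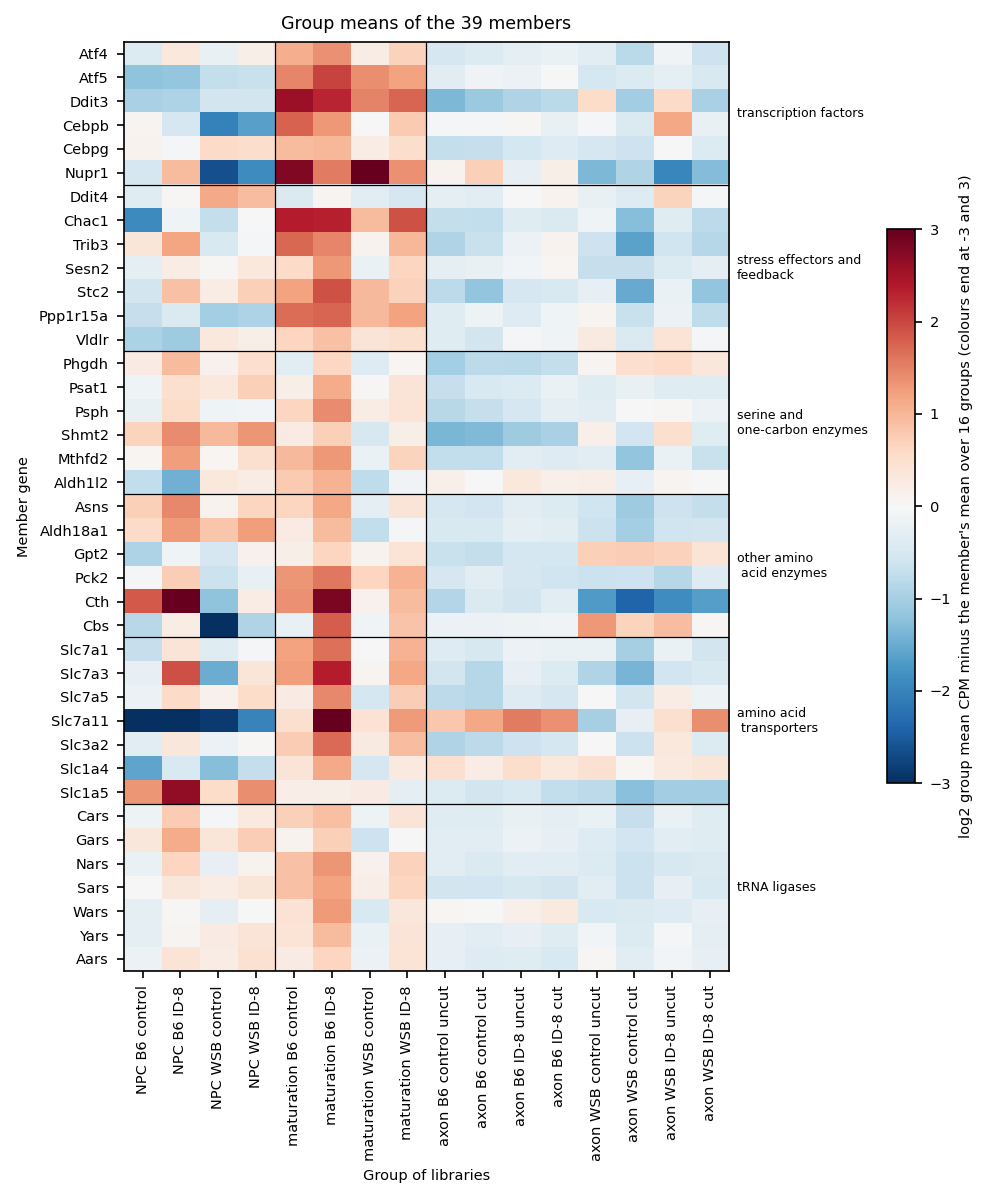
Each row is 1 of the 39 members, ordered by role, and each column 1 of the 16 groups. Colour gives the log2 of the group's mean CPM minus the member's mean of these log2 values over the groups. The maturation B6 columns hold the highest values of most members, 25 of them in the ID-8 column, which was not counted over all genes.

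In B6 progenitors, ID-8 cultures had higher levels of genes from every role, with Slc7a3, Cth and Chac1 showing the largest fitted differences. Slc7a3, a transporter of arginine and lysine, ranged from 12.78 to 31.49 CPM in control (median of 6 libraries 15.0) and from 39.02 to 118.6 CPM with ID-8 (median 87.01). All 6 ID-8 libraries lay above all 6 controls. The fitted difference was 2.15 ± 0.24, a 4.452-fold rise (adjusted p = 2.4e-06). Chac1, which degrades glutathione, ranged from 2.782 to 5.78 CPM in control and from 6.65 to 20.38 CPM with ID-8, again without overlap, and rose by 1.73 ± 0.21. Cth rose by 1.74 ± 0.28 and Nupr1 by 1.38 ± 0.36, the latter from 3.888 to 11.68 CPM in control to 4.023 to 36.23 CPM with ID-8, so that its groups overlapped. Atf4 itself ranged from 136.3 to 159.9 CPM in control and from 190.0 to 306.4 CPM with ID-8, a rise of 0.66 ± 0.09 (adjusted p = 1.0e-05) with no overlap.

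Of the 39 members, 30 were called higher and 1 lower in this comparison, where 18.4% of the 17248 genes tested were called higher and 22% lower. The median log2 difference was 0.69 over the members and -0.04 over all genes tested. Among the enzymes that build serine from a glycolytic intermediate, Phgdh ranged from 142.4 to 204.2 CPM in control and from 192.2 to 325.4 CPM with ID-8, and rose by 0.66 ± 0.09. The next enzymes of that path, Psat1 and Psph, rose by 0.58 ± 0.11 and 0.72 ± 0.14. The mitochondrial folate enzymes Mthfd2 (1.14 ± 0.20) and Shmt2 (0.74 ± 0.11) rose, while Aldh1l2, the mitochondrial formyl-folate dehydrogenase, was the 1 member called lower, at -0.67 ± 0.24. All 6 other amino acid enzymes were called higher, with log2 differences from 0.68 (Aldh18a1, proline synthesis) to 1.74 (Cth). Asns, asparagine synthetase, had 128.3 to 301.9 CPM in control and 226.0 to 478.0 CPM with ID-8, overlapping groups, and rose by 0.69 ± 0.17.

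Transporters called higher in B6 progenitors numbered 6 of 7. After Slc7a3, Slc1a5 (1.29 ± 0.24) and Slc1a4 (1.08 ± 0.10), exchangers of small neutral amino acids, and Slc7a1 (1.06 ± 0.15), a second arginine importer, had the larger differences. Slc7a11 remained low, at 0.3146 to 2.584 CPM in control and 1.266 to 2.384 CPM with ID-8, and was not called (0.61 ± 0.38, adjusted p = 0.2). All 7 tRNA ligases were called higher, by 0.26 (Wars) to 0.85 (Cars). Of the stress effectors 4 of 7 were called higher. Besides Chac1 these were Stc2, a secreted glycoprotein (1.38 ± 0.27), Trib3, a pseudokinase that restrains ATF4 (0.74 ± 0.26), and Sesn2, a leucine sensor upstream of mTORC1 (0.46 ± 0.12). Trib3 ranged from 9.425 to 20.8 CPM in control and from 10.75 to 38.04 CPM with ID-8, and Sesn2 from 83.3 to 144.7 and from 112.7 to 175.1, so both overlapped. Ddit3, the pro-apoptotic factor CHOP, gave 11.64 to 22.87 CPM in control and 10.65 to 23.06 CPM with ID-8 (0.01 ± 0.21). Atf5, Cebpb, Cebpg, Ddit4, Ppp1r15a and Vldlr were not called either. With the replicate number of the first library block as a replicate block, Cebpb (-0.64 ± 0.23, adjusted p = 0.031) and Cebpg (-0.19 ± 0.06, adjusted p = 0.022) were called lower, in a fit that called 43% of all genes.

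**Figure D2:**
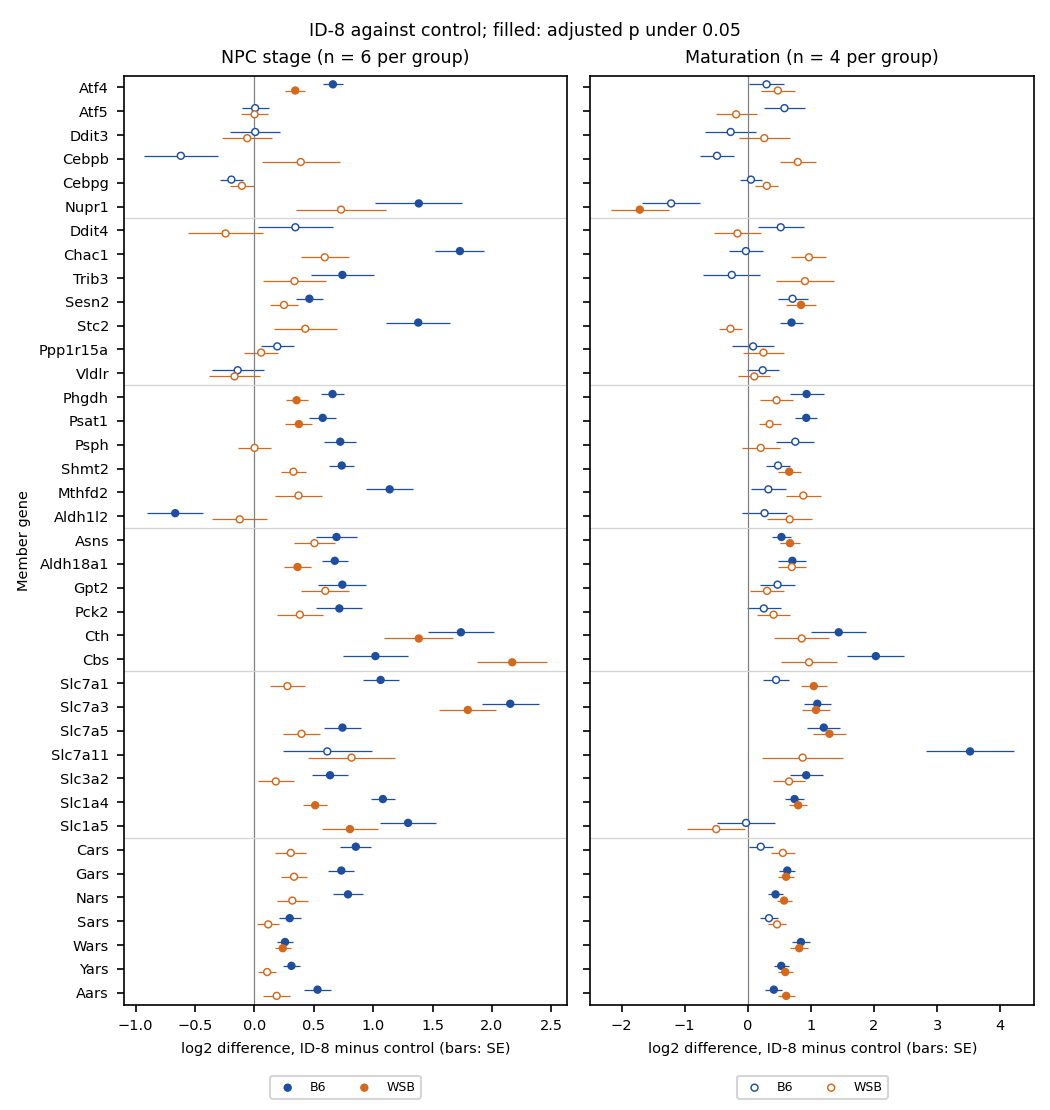
Points are the fitted log2 differences between ID-8 and control cultures for each member (bars: SE), in NPC and maturation cultures of B6 and WSB, and filled points have an adjusted p under 0.05. Slc7a3, Slc1a4 and Wars are filled in all 4 comparisons, whereas Ddit3, Atf5, Cebpb, Cebpg, Ddit4, Ppp1r15a and Vldlr are filled in none.

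Cell type markers moved with this comparison. Summed pluripotency markers were 454.6 to 1279 CPM in B6 NPC control and 1012 to 2650 CPM with ID-8 (6 of 8 markers called higher). Summed neuronal markers fell from 1738 to 4331 CPM to 272.1 to 2149 CPM (6 of 8 called lower), while endoderm markers were 22.48 to 37.8 CPM in control and 45.6 to 323.2 CPM with ID-8 (5 of 6 higher). Markers of fibroblasts and mesenchyme went from 90.11 to 204.4 CPM to 219.9 to 633.2 CPM. Neural progenitor markers were 751.5 to 1391 CPM and 379.9 to 998.7 CPM (3 of 7 lower). Astrocyte markers were 31.57 to 44.17 CPM and 111.5 to 246.1 CPM. Among them Aldh1l1 (2.66 ± 0.39) and Slc1a3 (1.77 ± 0.29) were called higher, but Aqp4 was called lower (-1.75 ± 0.54). Trophoblast markers were 101.2 to 500.8 CPM and 42.71 to 110.6 CPM (5 of 6 lower, Tpbpa by -4.97 ± 0.63). Of all the markers listed, 0 were at 0 in every library of either group. Their part in the members' differences was not tested. All 31 called members had the same sign in both library blocks of the NPC stage. As the calls come from a fit over both blocks, this is largely built in, and it was not counted over all genes. The count of calls was 14 in the first block alone and 30 in the second alone, where 7.98% and 22.7% of all genes were called.

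In WSB progenitors ID-8 gave higher levels of a smaller number of members, led by Cbs, Slc7a3 and Cth. Cbs ranged from 0.5748 to 2.198 CPM in control and from 3.521 to 9.457 CPM with ID-8, with no overlap, a rise of 2.17 ± 0.29 (adjusted p = 0.00014). Slc7a3 ranged from 5.352 to 8.621 CPM and from 16.23 to 39.47 CPM, also without overlap (1.80 ± 0.24). Cth went from 1.599 to 3.126 CPM to 5.324 to 6.779 CPM (1.38 ± 0.29). In total 10 members were called higher by edgeR, where 4.71% of the 17248 genes tested were higher and 4.86% lower. The other 7 were Slc1a5 (0.80), Slc1a4 (0.51), Psat1 (0.37), Phgdh (0.36), Aldh18a1 (0.36), Atf4 (0.34) and Wars (0.24). Members called lower numbered 0 by edgeR and 0 by DESeq2, and 20 members had an unadjusted p under 0.05 in either direction. The 10 calls were all among the 30 of B6, where they made up 33.3%. As those 30 are most of the 39 members, a large overlap says little, and it was not counted over all genes.

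The count in WSB depended on the treatment of library blocks. It was 5 without the block term, 2 in the first library block alone and 0 in the second alone by edgeR, where 6.62%, 0.961% and 0.0117% of all genes were called. All 10 members kept a positive sign in both blocks, which is largely built in, as the calls come from a fit over both. With the replicate number of the first block as a replicate block it was 14, the additions being Chac1 (0.56 ± 0.15, adjusted p = 0.026), Shmt2, Gpt2 and Gars, and 11.2% of all genes were called. In this strain, Atf4 ranged from 142.9 to 185.8 CPM in control and from 186.9 to 257.2 CPM with ID-8, and Phgdh from 104.9 to 197.3 CPM and from 149.1 to 276.5 CPM. The Atf4 groups did not overlap and the Phgdh groups did. Psph, in contrast to B6, stood at 17.797 to 22.188 CPM in control and 18.198 to 22.494 CPM with ID-8. All 8 pluripotency markers were called higher in WSB as well, with sums of 40.71 to 76.63 CPM in control and 92.3 to 466.4 CPM with ID-8, whereas 0 of 8 neuronal markers were called by edgeR. Trophoblast markers were 37.07 to 147.5 CPM in control and 3.894 to 16.49 CPM with ID-8 (5 of 6 lower). Their part in the members' differences was not tested.

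The difference of the responses itself was called in 4 members, all with a smaller rise in WSB: Chac1 (-1.14 ± 0.28, adjusted p = 0.031), Slc7a1 (-0.79 ± 0.21, adjusted p = 0.044), Psph (-0.72 ± 0.19, adjusted p = 0.041) and Slc1a4 (-0.57 ± 0.14, adjusted p = 0.034). Genes with a larger value in WSB made up 1.44% and genes with a smaller one 1.76% of those tested. The WSB controls already had more Chac1, at 8.603 to 13.31 CPM against 2.782 to 5.78 CPM in B6. With ID-8 the strains overlapped, at 7.632 to 26.28 CPM in WSB and 6.65 to 20.38 CPM in B6. The member median of the difference was -0.33 and that of all genes tested 0.04. The Slc7a1 call was lost with the replicate block of the first library block (-0.78 ± 0.23, adjusted p = 0.064). The count was 0 without the library block term and 0 in either block alone, in fits by edgeR, and DESeq2 called 4. At an unadjusted p under 0.05, 16 members differed.

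**Figure D3:**
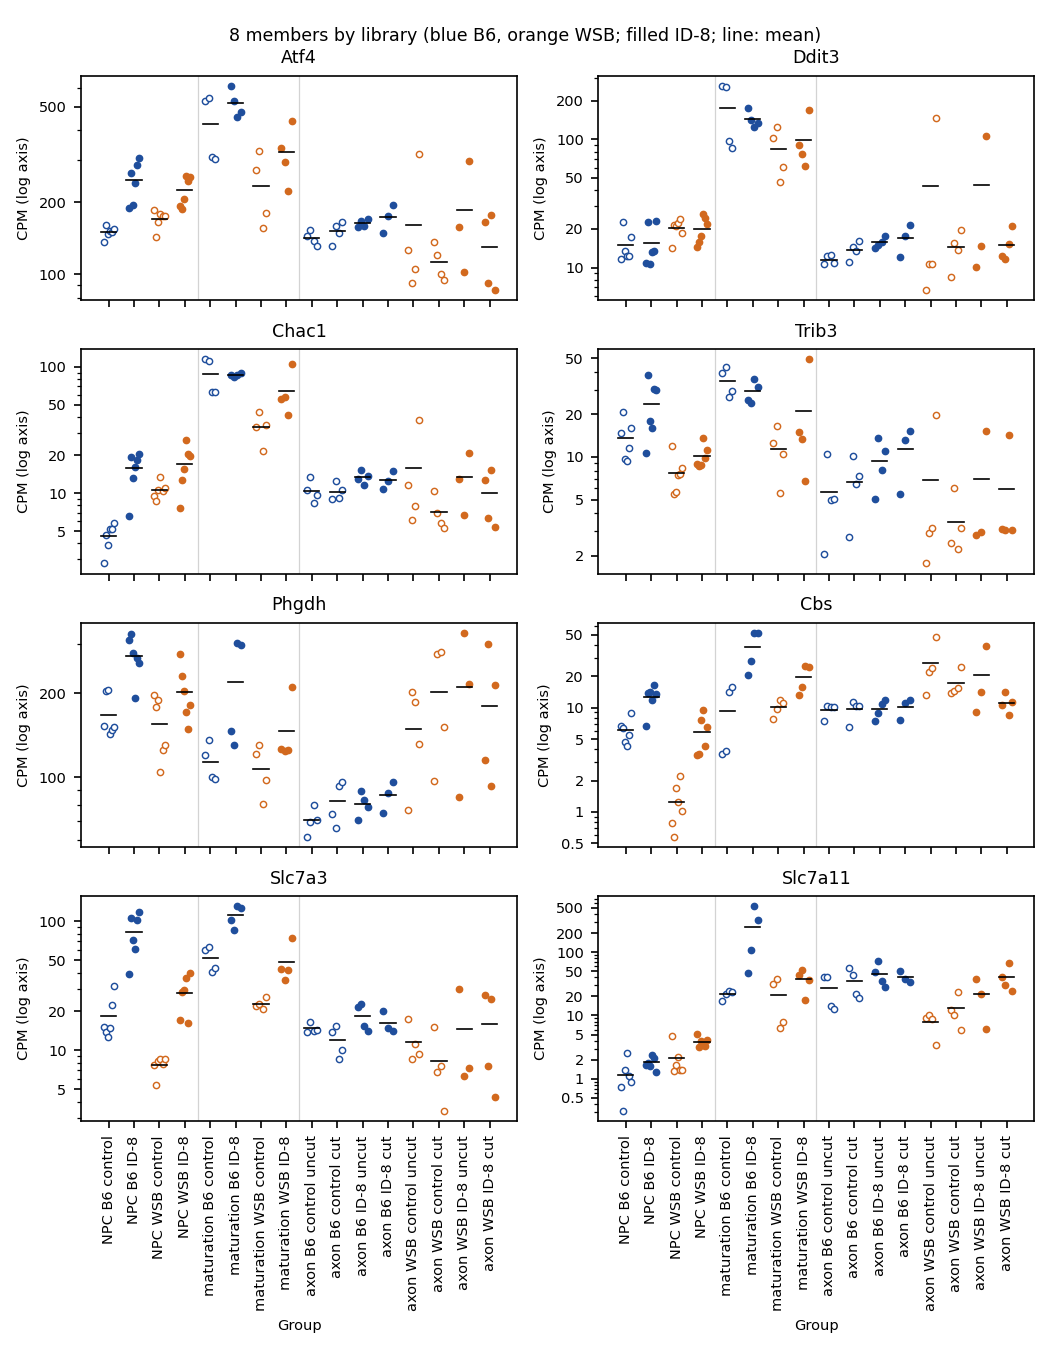
Each point is 1 library's CPM on a log axis for Atf4, Ddit3, Chac1, Trib3, Phgdh, Cbs, Slc7a3 and Slc7a11, in the 16 groups. The control and ID-8 points of Slc7a3 are separate in NPC cultures of both strains, and the highest Slc7a11 points, 526.6 and 326.7 CPM, are B6 ID-8 maturation libraries.

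Control progenitors of the strains differed in both directions. WSB was higher in 13 members and lower in 10, where 20% of all genes tested were higher and 25% lower. Cth and Cbs, enzymes of the transsulfuration path, were the lowest against B6. Cth stood at 12.382 to 32.864 CPM in B6 and 1.5991 to 3.1261 CPM in WSB (-3.01 ± 0.30), and Cbs at 4.307 to 8.882 CPM and 0.5748 to 2.198 CPM (-2.29 ± 0.30), neither overlapping. Nupr1 (-2.13 ± 0.38), Cebpb (-2.10 ± 0.33), a partner of ATF4 on DNA, and Slc7a3 (-1.21 ± 0.24) were also lower, together with Trib3, Slc1a5, Pck2, Asns and Ppp1r15a at -0.82 to -0.36. Of the stress effectors 5 of 7 were higher in WSB, among them Ddit4, an mTORC1 inhibitor (1.49 ± 0.32), Vldlr, a lipoprotein and reelin receptor (1.28 ± 0.22), Chac1 (1.23 ± 0.20) and Stc2 (0.79 ± 0.27). Aldh1l2 was higher by 1.05 ± 0.23, and Yars, Atf5, Cebpg, Psat1, Aars, Sesn2, Slc1a4 and Shmt2 by 0.31 to 0.53. All 23 calls kept their sign in both library blocks, which is largely built in, as the calls come from a fit over both. There were 14 calls in the first block alone and 10 in the second, where 24.4% and 16.3% of all genes were called. Pluripotency markers were called lower in WSB for 8 of 8 genes, and their part was not tested. The build named in the processing notes is the B6-based GRCm38, with no role given, and how WSB reads were counted is not stated further. The part of sequence differences in these contrasts was not tested. Phgdh has 6 near-identical copies elsewhere in the genome and Psat1 has 1, and Cebpb, Psph and Aldh1l2 overlap the genes Tmem189, Cct6a and D10Wsu102e, so the levels of these 5 members are uncertain. Summing the copies moved mean Phgdh in WSB control from 154.42 to 161.56 CPM, and in B6 control from 166.5 to 166.57 CPM.

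**Figure D4:**
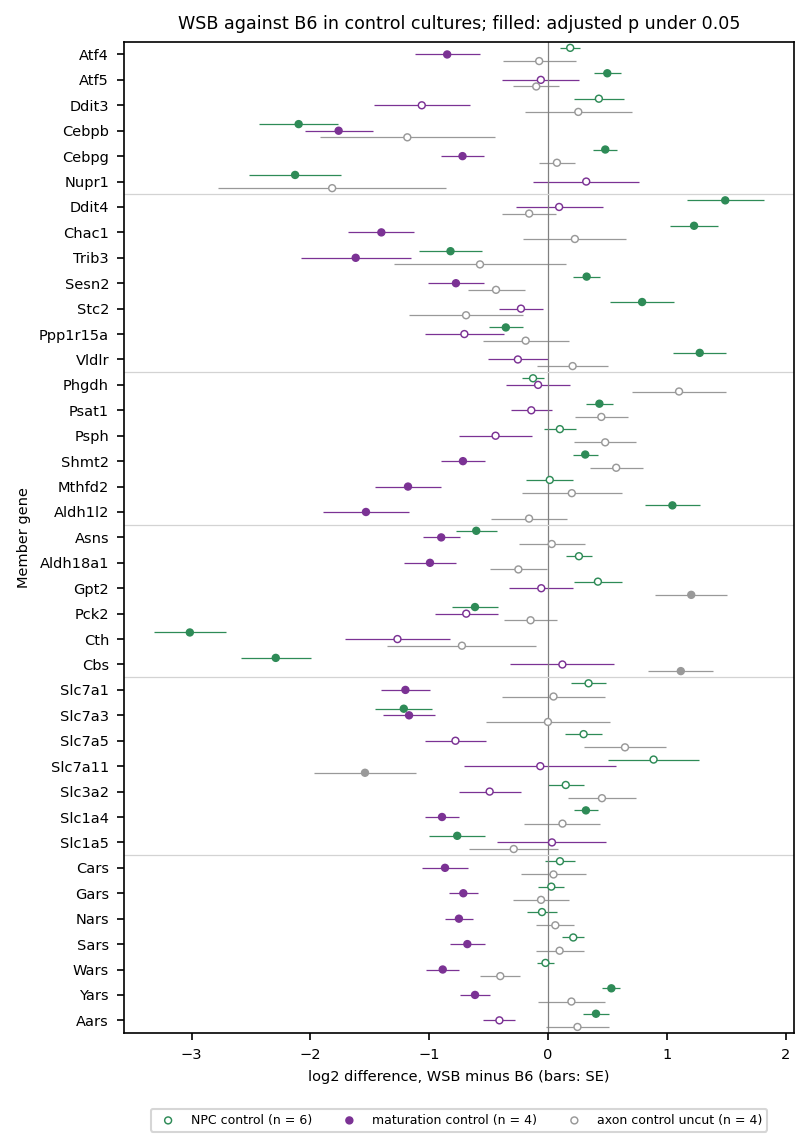
Points are the fitted log2 differences WSB minus B6 in control cultures for each member (bars: SE) at the NPC stage, at maturation and in uncut axon cultures, and filled points have an adjusted p under 0.05. At maturation the filled points, 20 in number, all lie on the lower side, while NPC points lie on both sides.

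At maturation, WSB control cultures were lower than B6 in 20 members and higher in 0 by edgeR (0 higher and 24 lower by DESeq2, and 26 members at an unadjusted p under 0.05), where 7.38% of the 16954 genes tested were higher and 7.39% lower. The member median was -0.72 and that of all genes tested was near 0. Chac1 gave 114.5, 111.5, 63.7 and 63.2 CPM in B6 replicates 1 to 4 and 33.4, 43.6, 21.53 and 34.89 CPM in WSB. Every B6 library was above every WSB library (-1.40 ± 0.28, adjusted p = 0.0029). Trib3 read 39.51, 43.45, 26.61 and 29.13 CPM in B6 and 12.55, 16.64, 5.561 and 10.45 CPM in WSB, without overlap (-1.62 ± 0.46). Cebpb (-1.76 ± 0.29) and Cebpg (-0.72 ± 0.18) were lower, as was Atf4 (-0.85 ± 0.27, adjusted p = 0.047), whose libraries overlapped: 531.2, 545.7, 307.4 and 303.7 CPM in B6 and 273.6, 327.0, 156.1 and 180.3 CPM in WSB. Sesn2 was lower too (-0.78 ± 0.24, adjusted p = 0.039).

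Among enzymes and importers, Asns had separate groups, with 234.2, 252.2, 173.6 and 171.2 CPM in B6 and 109.2, 122.0, 97.84 and 116.2 CPM in WSB (-0.90 ± 0.15, adjusted p = 0.00089). Aldh18a1 (-0.99 ± 0.22), Aldh1l2 (-1.53 ± 0.36), Mthfd2 (-1.18 ± 0.28) and Shmt2 (-0.72 ± 0.18) were lower. The importers Slc7a1 (-1.20 ± 0.21), Slc7a3 (-1.17 ± 0.22) and Slc1a4 (-0.89 ± 0.14) were lower as well. Of the tRNA ligases 6 of 7 were lower, at -0.61 (Yars) to -0.89 (Wars). Phgdh and Psat1 were not called, at -0.08 ± 0.27 and -0.14 ± 0.17, nor was Slc7a11 (-0.07 ± 0.64). Some calls were lost when a single library was left out. Shmt2 lost its call without B6 control replicate 1 or 2, Atf4 and Trib3 without either of these or WSB control replicate 1, 3 or 4, and Sesn2 without any of the 8 but WSB control replicate 2. The other 16 calls held in all 8 cases. Summed markers of fibroblasts and mesenchyme were 478.3 to 853.5 CPM in B6 and 1480 to 4015 CPM in WSB controls (5 of 7 called higher), and astrocyte markers 455.5 to 3155 CPM and 2773 to 3833 CPM (2 of 5 higher). Their part in the members' differences was not tested.

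ID-8 at maturation raised most of the importers, tRNA ligases and amino acid enzymes outside the serine group in B6. Slc7a11 had 16.96, 21.61, 24.64 and 23.88 CPM in control and 47.71, 109.4, 526.6 and 326.7 CPM with ID-8. All 4 ID-8 libraries exceeded all controls, and replicates 3 and 4 lay far above replicates 1 and 2. The fitted rise was 3.52 ± 0.70, or 11.5-fold (adjusted p = 0.0029). Cbs read 3.628, 3.809, 13.97 and 15.7 CPM in control and 20.58, 27.7, 52.05 and 51.94 CPM with ID-8, again without overlap (2.03 ± 0.45). Psat1, with 206.6, 226.0, 209.2 and 206.7 CPM in control and 307.0, 287.6, 530.6 and 492.7 CPM with ID-8, also had separate groups (0.93 ± 0.18). Slc7a5 and Slc3a2, the chains of the large neutral amino acid exchanger, rose by 1.21 ± 0.26 and 0.93 ± 0.26.

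In all, 17 members were called higher and 0 lower by edgeR, where 7.71% of the genes tested were higher and 9.41% lower. DESeq2 called 18 higher and 1 lower, and 23 members had an unadjusted p under 0.05. By role these were 5 of 7 transporters, 5 of 7 tRNA ligases, 4 of 6 amino acid enzymes outside the serine group, 2 of 6 serine and one-carbon enzymes, 1 of 7 stress effectors (Stc2, 0.69 ± 0.19) and 0 of 6 transcription factors, of which 1 had an unadjusted p under 0.05. Slc7a3 rose by 1.10 ± 0.22 and Slc1a4 by 0.74 ± 0.14. Among the ligases, Wars (0.84 ± 0.14) and Gars (0.63 ± 0.12) had the larger differences. Atf4 (0.30 ± 0.27), Chac1 (-0.03 ± 0.27) and Ddit3 (-0.27 ± 0.40) were not called. Nupr1 stood at 82.92, 90.49, 40.43 and 44.38 CPM in control and 35.79, 31.77, 22.21 and 21.19 CPM with ID-8. All its ID-8 libraries were below all controls, at -1.21 ± 0.46 without a call and at -1.15 ± 0.23 (adjusted p = 0.0018) with the culture set as a replicate block. That fit also called Sesn2, Psph and Shmt2 higher, and it called 28.4% of all genes.

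Leaving out single libraries changed the B6 count, which was 10 without control replicate 3, 10 without control replicate 4 and 11 without ID-8 replicate 4. Psat1, Cbs, Slc7a3, Slc7a5, Slc7a11, Slc1a4, Gars, Nars, Wars and Yars kept their calls in all 8 cases. Phgdh, with 120.6, 136.0, 100.1 and 98.88 CPM in control and 146.5, 130.2, 300.8 and 295.7 CPM with ID-8, lost its call (0.93 ± 0.27, adjusted p = 0.026) in 4 of 8, each a library of replicate 3 or 4. Cth lost its call without the same 4 libraries. Without control replicate 3 or 4, Aars, Aldh18a1, Stc2, Asns and Slc3a2 lost theirs. Stc2 and Slc3a2 also lost theirs without ID-8 replicate 4, and Asns without ID-8 replicate 2. Aldh18a1 did so without control replicate 2 or ID-8 replicate 3 or 4, and Aars without any library but ID-8 replicate 1.

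The culture sets of the maturation stage, replicates 1 and 2 in the first and 3 and 4 in the second, differed in the members. Control libraries of the first set were above both of the second in 29 of 39 members in B6 and 23 in WSB, 21 in both strains. They were below both in 5 members in B6 and 5 in WSB. Ddit3 showed the gap plainly, with 261.6 and 253.6 CPM in the first and 97.29 and 84.87 CPM in the second set of B6 controls. Within the first set, ID-8 libraries had the higher mean in 25 members in B6 (median log2 ratio 0.13) and 28 in WSB (0.38). Within the second set the counts were 37 (0.8) and 36 (0.74). In B6 the log2 ratio of Ddit3 was -0.70 in the first set and 0.51 in the second, that of Phgdh 0.11 and 1.58, and that of Slc7a11 2.03 and 4.14. Nupr1 was lower with ID-8 in both sets of both strains, at -1.36 and -0.97 in B6 and -1.76 and -1.66 in WSB. No test was run on the difference between the sets. The counts by set were not made over all genes, so a shift of the members cannot be told from a general one.

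In WSB maturation cultures ID-8 raised 12 members and lowered 1, where 2.86% of the genes tested were higher and 3.03% lower. Importers and tRNA ligases again led. Slc7a5 gave 136.9, 151.0, 90.95 and 116.1 CPM in control and 230.5, 289.2, 189.3 and 496.4 CPM with ID-8, all above the controls (1.29 ± 0.26, adjusted p = 0.0087). Slc7a3 had 21.96, 23.05, 21.01 and 26.09 CPM and then 42.35, 34.89, 41.93 and 74.4 CPM, likewise separate (1.08 ± 0.22). Slc7a1 (1.05 ± 0.21) and Slc1a4 (0.80 ± 0.14) rose too. The 5 ligases called were Wars (0.82), Gars, Aars, Yars and Nars, the last by 0.58. Asns went from 109.2, 122.0, 97.84 and 116.2 CPM to 167.6, 167.4, 145.4 and 222.0 CPM (0.67 ± 0.15). Sesn2 (0.84 ± 0.24, adjusted p = 0.049) and Shmt2 (0.66 ± 0.18, adjusted p = 0.047) were called narrowly, and each lost its call in 7 of 8 fits with 1 library left out, all but the one without ID-8 replicate 3. Asns lost its call without ID-8 replicate 4 or control replicate 1 or 3, and Aars without ID-8 replicate 2 or 4 or control replicate 3.

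Nupr1 was the member called lower in WSB, with 112.0, 120.5, 42.7 and 47.68 CPM in control and 36.61, 31.92, 7.118 and 21.52 CPM with ID-8, the groups being separate (-1.71 ± 0.46, adjusted p = 0.04). Its call was lost in 5 of 8 fits with a library left out, WSB ID-8 replicates 2, 3 and 4 and control replicates 1 and 2. Without WSB ID-8 replicate 4, the library with the highest values of Sesn2 (311.0 CPM), Phgdh (209.3 CPM) and Trib3 (49.17 CPM) in its group, the WSB count was 8. Slc7a1, Slc7a3, Slc7a5, Slc1a4, Gars, Nars, Wars and Yars kept their calls in all 8 cases. With the culture set as a replicate block, 20 members were called in place of 13, while the share of all genes called went from 5.89% to 14.2%. The additions were Cebpb (0.76 ± 0.24), Chac1 (1.00 ± 0.26, adjusted p = 0.019), Mthfd2 (0.93 ± 0.26), Aldh18a1, Cbs (0.92 ± 0.24), Cars and Sars. Slc7a11 had 30.94, 38.27, 6.272 and 8.01 CPM in control and 44.37, 51.55, 17.74 and 36.7 CPM with ID-8, overlapping groups (0.87 ± 0.64).

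The ID-8 responses of the strains at maturation did not differ by test in any member: edgeR called 0, DESeq2 1, and 5 had an unadjusted p under 0.05, where 0.46% of the genes tested were called in either direction. For Slc7a11 the fitted difference was -2.65 ± 0.91 (adjusted p = 0.32). Of the 17 members higher in B6 and the 12 higher in WSB, 9 were shared, or 52.9% and 75% of them. Of the 12, all were also among the 30 called higher in B6 progenitors, 40% of those. As those 30 are most of the 39 members, a large overlap says little. Overlaps over all genes were not counted. Slc7a3, Slc1a4 and Wars were higher in all 4 ID-8 comparisons. Wars, for example, went from 82.16, 85.59, 99.36 and 107.5 CPM to 133.7, 174.0, 155.1 and 191.4 CPM in WSB maturation cultures. Markers of neural progenitors moved with ID-8 at this stage, with sums of 624.9 to 987.1 CPM in B6 control and 1075 to 1727 CPM with ID-8, and 758 to 1284 CPM and 844.3 to 2053 CPM in WSB. Of these Nes was called higher in both strains, while Pax6 was called lower in B6 (-1.02 ± 0.27). The astrocyte marker S100b was called higher in both strains (1.95 ± 0.31 and 1.23 ± 0.30). The summed astrocyte markers did not rise in B6, at 455.5 to 3155 CPM in control (median 1762) and 1290 to 1825 CPM with ID-8 (median 1564). In WSB they were 2773 to 3833 CPM and 3890 to 5174 CPM. Their part was not tested.

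Members with and without the TGATGNAA letters in their window were also counted apart. In B6 progenitors given ID-8, 9 of 11 members with the letters and 14 of 20 without were higher (18.4% of all genes tested), with median log2 differences of 0.72 and 0.65. In WSB progenitors 1 of 11 and 5 of 20 were higher (4.71% of all genes), with medians of 0.38 and 0.30. At maturation the counts higher were 6 of 11 and 6 of 20 in B6 (medians 0.41 and 0.50, 7.71% of all genes). In WSB they were 5 of 11 and 3 of 20 (medians 0.61 and 0.46, 2.86% of all genes). There 1 member with the letters, Nupr1, was lower (3.03% of all genes). In the strain comparison of maturation controls 6 of 11 and 9 of 20 were lower (7.39% of all genes). These are descriptions, and no test of the difference was run.

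Axotomy changed none of the members by test. In each strain and treatment edgeR called 0 of 39 between cut and uncut cultures, and DESeq2 called 0. Of all 18106 genes tested 0% were called. Members with an unadjusted p under 0.05 numbered 0 in B6 control, 3 in WSB control, 0 in B6 ID-8 and 2 in WSB ID-8. In B6 controls, Atf4 read 144.4, 153.5, 137.1 and 130.9 CPM uncut and 131.2, 158.9, 148.4 and 165.3 CPM cut, overlapping groups (0.10 ± 0.29). Ddit3 read 10.6, 12.41, 12.45 and 10.78 CPM uncut and 10.96, 14.44, 13.48 and 16.01 CPM cut, and its cut library was the higher in all 4 culture sets (0.26 ± 0.41). Of the 39 members 9 were higher and 8 lower with the cut in all 4 B6 control sets (15.7% and 19% of all genes), and 2 higher and 6 lower in all 4 WSB control sets (10.1% and 11.9%). With ID-8 the counts were 13 higher and 1 lower in all 3 B6 sets (19.9% and 19.3%), and 3 higher and 5 lower in all 3 WSB sets (15.2% and 9.85%). The difference of the cut responses between strains was called in 0 members by edgeR and by DESeq2 (0% of genes tested, 0 members at an unadjusted p under 0.05).

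In WSB the uncut libraries of the fourth culture set, control replicate 4 and ID-8 replicate 3, differed from the rest. Ddit3 was 145.9 and 106.4 CPM in them and 6.709 to 20.94 CPM in the other 13 WSB axon libraries, including 19.61 and 20.94 CPM in the cut cultures of the same set. Atf4 stood at 317.5 and 296.3 CPM against 86.15 to 176.5 CPM. Trib3 was 19.76 and 15.37 CPM against 1.763 to 14.34 CPM, and Chac1 37.63 and 20.6 CPM against 5.352 to 15.37 CPM. The members above all others in both libraries numbered 17: Atf4, Ddit3, Cebpb, Cebpg, Ddit4, Chac1, Trib3, Stc2, Ppp1r15a, Vldlr, Shmt2, Mthfd2, Gpt2, Cbs, Slc7a5, Slc3a2 and Sars. The same split was not counted over all genes, so a shift of the members cannot be told from a general one. For Shmt2 the cut cultures of the same set were also high, at 79.44 to 87.92 CPM against a median of 34.4 CPM over the 13. Ppp1r15a, the subunit that directs dephosphorylation of eIF2, was at 84.17 to 132.3 CPM against 19.84 to 41.08 CPM, and Slc3a2 at 398.2 to 406.1 CPM against 94.63 to 143.1 CPM. Phgdh, Psat1 and Asns overlapped, and Wars was below all others (66.05 to 74.78 against 77.21 to 126.3 CPM). No comparison of the axon stage gained or lost a call on the cut with either of these libraries left out.

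**Figure D5:**
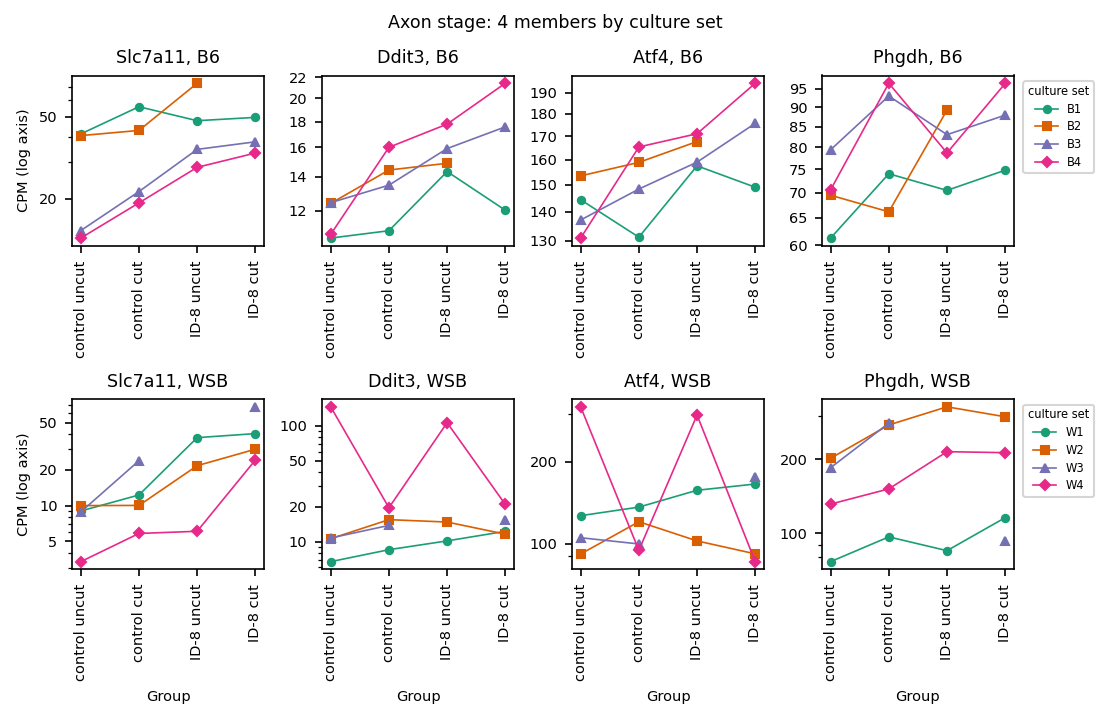
Points are CPM on a log axis for Slc7a11, Ddit3, Atf4 and Phgdh in the 4 axon groups of each strain, joined by culture set. The WSB set W4 peaks in both uncut groups for Ddit3 and Atf4, and Slc7a11 is higher with ID-8 than in control in every WSB set that holds both.

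ID-8 at the axon stage gave 0 calls among the members by edgeR in both strains, uncut or cut, and 0% among the 18106 genes tested. DESeq2 called 1 member in WSB cut cultures and 0 in the other 3 comparisons. At an unadjusted p under 0.05 there were 0 in B6 uncut, 3 in WSB uncut, 0 in B6 cut and 2 in WSB cut. Slc7a11 in WSB read 9.021, 10.02, 8.856 and 3.379 CPM in control uncut and 37.41, 21.72 and 6.089 CPM with ID-8 uncut. In cut cultures it read 12.31, 10.05, 23.92 and 5.838 CPM in control and 40.45, 29.89, 67.99 and 24.25 CPM with ID-8. Only the cut groups were separate, and within culture sets the ID-8 library was the higher in 3 of 3 uncut and 4 of 4 cut pairs. The differences were 1.45 ± 0.45 (adjusted p = 0.43) and 1.71 ± 0.43 (adjusted p = 0.26). With the culture set as a replicate block they were 1.57 ± 0.28 (adjusted p = 0.01) and 1.72 ± 0.26 (adjusted p = 0.0025).

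The same fit called 2 members in WSB uncut cultures, the other being Ddit4 (0.85 ± 0.21, adjusted p = 0.031), and 1 in cut cultures, where it called 3.11% and 1.97% of all genes tested. WSB ID-8 cut replicate 3 did not correlate with its set. Without it, the fit by set called 4 members in uncut cultures, Phgdh (0.59 ± 0.12, adjusted p = 0.006) and Psph (0.50 ± 0.13, adjusted p = 0.019) being added, and 1 in cut cultures, Slc7a11 (1.66 ± 0.30). It then called 11.2% of all genes in uncut and 1.73% in cut cultures. In B6, 21 of the 39 members had the higher value with ID-8 in all 4 uncut sets and 0 the lower, where 17.7% of all genes tested had the higher and 17.6% the lower. In all 3 cut sets, 31 members had the higher and 2 the lower value, where 25.9% and 22.3% of genes did. In WSB, 9 members were higher and 4 lower in all 3 uncut sets (17.1% and 23.2% of genes), and 9 higher and 1 lower in all 4 cut sets (7.73% and 7.14% of genes). The median log2 differences over the members in B6 were 0.19 and 0.19, and 0 were called by edgeR with or without the set, which as a block gave calls for 1.22% and 1.52% of all genes. Phgdh in B6 read 61.26, 69.48, 79.42 and 70.6 CPM in control uncut and 70.48, 89.25, 83.03 and 78.69 CPM with ID-8, overlapping groups.

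Between strains, uncut axon controls differed in 3 members. WSB was higher in Gpt2, the mitochondrial alanine transaminase (1.21 ± 0.30, adjusted p = 0.01), and in Cbs, and lower in Slc7a11, where 5.68% of the genes tested were higher and 7.56% lower. Cbs had 7.526, 10.29, 10.2 and 10.18 CPM in B6 and 13.14, 21.86, 23.92 and 48.04 CPM in WSB (1.12 ± 0.27). Slc7a11 had 41.24, 40.48, 14.01 and 12.89 CPM in B6 against 9.021 CPM and the other WSB values above (-1.54 ± 0.43, adjusted p = 0.02). Neither overlapped. The Slc7a11 call was lost in 5 of 8 fits with a library left out, B6 replicates 1 and 2 and WSB replicates 1, 2 and 3. The Gpt2 and Cbs calls held in all 8. The fourth WSB set is the only one of these in the third library block. The fit adjusts for the block by 1 term shared by cut and uncut libraries, which does not remove a gap of the uncut libraries alone. In that set Cbs was 38.87 to 48.04 CPM uncut and 11.37 to 24.76 CPM cut. With libraries of the second block only, the 3 calls held. Summed astrocyte markers were 1293 to 2265 CPM in the B6 and 1152 to 11470 CPM in the WSB libraries, and fibroblast markers 2166 to 7273 CPM and 53.07 to 2093 CPM. Their part was not tested.

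Uncut axon controls were compared with NPC controls within the second library block, which leaves out the fourth WSB culture set. Of the 17400 genes tested, 30.3% were higher and 33.3% lower in B6, and 29.1% and 29.7% in WSB. Counts by role near these shares say little about the members. Of the 7 transporters 2 were higher and 1 lower in each strain. Slc7a11 rose by 4.17 ± 0.56 in B6 (17.97-fold, adjusted p = 4.5e-05) and 2.50 ± 0.54 in WSB, and Slc1a4 by 2.25 ± 0.20 and 1.94 ± 0.20. Slc1a4 ranged from 126.64 to 200.55 CPM in the B6 axon controls and from 30.294 to 42.777 CPM in all B6 NPC controls. Slc1a5 fell, at -1.73 ± 0.30 and -0.93 ± 0.32. Of the 6 serine and one-carbon enzymes 5 were lower in B6 and 3 in WSB, and 0 higher in either by edgeR. Shmt2 was lower in both (-1.81 ± 0.14 and -1.59 ± 0.15), with Mthfd2 lower in both strains (-0.82 ± 0.26 and -0.84 ± 0.28). Phgdh was lower in B6 (-1.05 ± 0.24) and not called in WSB (0.36 ± 0.26). Asns (-1.01 ± 0.22 and -0.63 ± 0.24) and Aldh18a1 (-0.84 ± 0.14 and -1.47 ± 0.15) fell in both.

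Cbs rose in WSB by 3.70 ± 0.36 (adjusted p = 5.2e-06) and was not called in B6 (0.64 ± 0.30), whereas Cth fell in B6 by 2.94 on the log2 scale (-2.94 ± 0.36) and was not called in WSB (-0.83 ± 0.40). The differences between strains in these stage contrasts were not tested. Of the transcription factors, Cebpg was lower in both (-0.86 ± 0.13 and -1.39 ± 0.15), Atf5 higher in B6 (1.04 ± 0.17), and Atf4 (-0.70 ± 0.13) and Ddit3 (-1.21 ± 0.19) lower in WSB. Among effectors, Chac1 was higher in B6 (0.97 ± 0.24), Trib3 lower in both (-1.12 ± 0.41 and -1.59 ± 0.46), and Stc2 (-2.22 ± 0.40), Ddit4 (-1.64 ± 0.26), Sesn2 (-0.84 ± 0.17) and Vldlr (-0.66 ± 0.22) lower in WSB. Among ligases Gars and Sars were lower in both, at -0.76 to -0.44, and Wars was higher in B6 (0.43 ± 0.13). Gpt2 was higher in WSB (1.12 ± 0.24). Also called were Psph (-0.59), Psat1 (-0.48) and Ppp1r15a (0.43) in B6 and Aldh1l2 (-0.73) in WSB. Of these calls, some were lost when a single library was left out. In B6 these were Trib3 (NPC replicates 5 and 6, axon replicates 3 and 4), Ppp1r15a (the same and NPC replicate 4), Psat1 (NPC replicate 6, axon replicates 1 and 2), Psph (NPC replicate 6), Sars (axon replicates 3 and 4) and Mthfd2 (NPC replicate 6). In WSB, leaving out axon replicate 2 or 3 ended the calls of Vldlr, Mthfd2, Aldh1l2, Asns and Slc1a5. So did NPC replicate 4 for Vldlr, Aldh1l2, Asns and Slc1a5, NPC replicate 5 for Vldlr, Aldh1l2 and Asns, and NPC replicate 6 for Mthfd2, Asns and Slc1a5. The counts were 6 higher and 13 lower in B6, where 30.3% and 33.3% of the 17400 genes tested were called. In WSB they were 4 higher and 16 lower, where 29.1% and 29.7% were. The share of members lower in B6 was thus near that of all genes. Cycling markers were called lower for 8 of 8 genes in both strains, and astrocyte markers higher for 5 of 5. Their part was not tested. NPC and maturation libraries share no library block, so stage and block cannot be told apart between them and no such test was made.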

How the data were processed

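PolyA RNA was sequenced from 76 samples. The deposited table holds expected counts per Ensembl gene, taken as such because 9.32% of the values were not whole. The submitters' processing notes name Bowtie2, RSEM, featureCounts, limma and the build GRCm38, with no role. Versions are not given in the sources used here. Runs of the same library were summed and counts rounded. The members and lists were chosen with earlier results of these data known. Genes passing filterByExpr were tested in R 4.3.3 with edgeR 4.0.16 (TMM, robust quasi-likelihood, Benjamini-Hochberg) within a stage, with the library block as a term at the NPC and axon stages and 1 fit per stage over all its groups. CPM use TMM-scaled totals, and an SE is the log2 difference divided by the root of its F statistic. In each comparison and role, up to 4 called members of smallest p per direction are named, 12 members are given by library, and up to 3 called genes stand for each other list. The script was tested on simulated data.

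Culture sets were read from the runs of sample names through the groups. Same-set libraries deviated together (correlation over 0.1) in 21 of 21 axon pairs in B6 (lowest 0.432), 6 of 6 of the WSB pairs in the third library block, 13 of 15 of those in the second (lowest -0.0267), and 8 of 8 maturation pairs in each strain (lowest 0.205 and 0.16). At the NPC stage, same-numbered libraries did so in 3 of 3 pairs in each strain in the first library block (lowest 0.121 and 0.109) and in 2 of 3 in the second. Alternatives were other scalings, DESeq2 1.42.0, no low count filter, first runs only, block terms, single libraries left out and counts summed with copies. Promoter windows, gene starts and their sequences are from RefSeq, GRCm38.p6.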

Additional observations from a re-analysis of the deposited data

Results flagged for a closer look

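Among 252 combinations of a group of 4 to 6 libraries with a lead member or a role mean, 19 held a library far from the others, where chance flags about 1 in 20 groups. At the axon stage, WSB control uncut replicate 4 was highest for Ddit3 (146 CPM, others 6.71 to 10.7) and for the mean log2 CPM of the stress effectors (6.1, others 4.01 to 4.23), and lowest for Slc7a11 (3.38 CPM, others 8.86 to 10). WSB ID-8 cut replicate 3 was highest for Trib3 (14.3 CPM, others 3.04 to 3.11) and the stress effector mean (5.13, others 4.28 to 4.39). B6 replicate 1 was lowest for Cbs in control uncut (7.53 CPM) and control cut (6.55 CPM), for the mean of the other amino acid enzymes in both (4.34 and 4.36), and for the stress effector mean in control uncut (4.32). Sesn2 was lowest in B6 control cut replicate 2 (82.6 CPM) and highest in B6 ID-8 uncut replicate 3 (130 CPM). The mean of the tRNA ligases was highest in WSB control cut replicate 1 (7.45, others 6.71 to 6.75).

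At maturation, WSB ID-8 replicate 4 was highest for Phgdh (209 CPM, others 124 to 126) and for the other amino acid enzymes (6.24, others 5.44 to 5.51), and B6 control replicate 2 was highest for Psat1 (226 CPM, others 207 to 209). At the NPC stage, Slc7a3 was lowest in WSB control replicate 2 (5.35 CPM), the other amino acid enzymes were highest in WSB control replicate 3 (4.71) and the transporter mean was lowest in WSB ID-8 replicate 5 (5.36, others 5.77 to 6).

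The NPC response to ID-8 was smaller in WSB than in B6 by an edgeR test of the difference for Chac1 (-1.138 on the log2 scale), Slc7a1 (-0.785), Psph (-0.7217) and Slc1a4 (-0.5704).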

How the results depend on the processing

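Of 1260 values of called members under the alternatives, 1153 kept their direction and their side of the threshold. The others kept their direction only, and 0 reversed. The 1260 do not include fits with a single library left out, in which more calls were lost, as given by member above. Counts of called members moved by over 1.5 times as follows, and the causes were not tested beyond the smaller number of libraries in fits of a single block. In the first library block alone, the NPC counts were 14 for ID-8 in B6, 2 for ID-8 in WSB, 14 between strains and 0 for the difference of responses; in the second alone they were 0 for ID-8 in WSB, 10 between strains and 0 for the difference. Without the block term ID-8 in WSB gave 5 and the difference 0, and without the low count filter the difference gave 1. DESeq2 called 1 member for the difference of responses at maturation and 1 for ID-8 in WSB cut axon cultures.

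With the replicate number as a replicate block in both NPC library blocks, ID-8 in WSB gave 21 and the difference 13 (18.7% and 20% of all genes called); the numbers pair libraries by the check in the first block only. With the culture set as a replicate block, ID-8 in WSB gave 20 at maturation, 2 in uncut and 1 in cut axon cultures (4 and 1 without WSB ID-8 cut replicate 3). Between strains at maturation that fit called 25 members and 27.2% of all genes, Ddit3 (-1.02 ± 0.34) among the additions, though same-set libraries of both strains deviated together in 25 of 32 pairs only. Apart from those named here or in the report, the block changed no call. No paired fit between strains was possible at the NPC and axon stages, because sets lie within a strain.

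Leaving out single libraries gave 10 to 18 calls for ID-8 in B6 and 8 to 15 in WSB at maturation, 16 to 21 between strains and 0 to 0 for the difference. At the axon stage it gave 0 to 0 for every cut and ID-8 contrast, 2 to 3 between strains, and 16 to 23 in B6 and 15 to 26 in WSB against NPC. Low members, such as Slc7a11 at the NPC stage, are the least precisely measured.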

Other observations

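Other genes of these pathways moved with ID-8 in B6 progenitors. Of 13 further cytosolic tRNA ligases 11 were called higher by edgeR, where 18.4% of all genes tested were higher and 22% lower, with Mars1 at 0.65 ± 0.07, Tars at 0.75 ± 0.11 and Rars at 0.51 ± 0.09. Of 17 mitochondrial tRNA ligases 8 were higher, among them Tars2 (0.65 ± 0.09). Folate and methyl cycle genes were higher in 8 of 11, led by Gcsh (1.16 ± 0.14) and Gldc (1.33 ± 0.21) of the glycine cleavage system. Further ATF4 targets were higher in 7 of 11, with the glycine transporter Slc6a9 at 0.80 ± 0.13. The kinase and eIF2 list was higher in 5 of 13, with Eif2s2 at 0.88 ± 0.16. Chaperone genes of the ATF6 and XBP1 branches, the other arms of the unfolded protein response, were higher in 13 of 17 (Manf, 0.70 ± 0.10), with Sel1l lower (-1.05 ± 0.15). In WSB progenitors the counts higher were 4 of 13 cytosolic ligases, 6 of 17 mitochondrial ligases, 1 of 17 chaperone genes, 1 of 11 folate genes, 0 of 13 of the eIF2 list by edgeR and 0 of 11 further ATF4 targets, of which Ero1l was lower (-0.89 ± 0.26). Of all genes tested there 4.71% were higher and 4.86% lower.

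At maturation, chaperone genes went the other way from the members in B6. ID-8 lowered 6 of 17, with Pdia4 at -1.44 ± 0.13 and Dnajc3 at -0.91 ± 0.13, and raised 0 by edgeR, while 5 of 13 further cytosolic ligases rose (Farsb, 0.50 ± 0.10). Of all genes tested 7.71% were higher and 9.41% lower. The difference of the Pdia4 response between strains was called (1.18 ± 0.18). Slc6a9 rose in both strains (1.47 ± 0.21 in B6 and 1.32 ± 0.21 in WSB). Between strains, Ahcy, the adenosylhomocysteine hydrolase of the methyl cycle, was lower in WSB controls by -5.83 ± 0.15 at the NPC stage and by -5.71 ± 0.31 at maturation. Whether reads of Ahcy went to other copies of the gene was not tested.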
